A study of Homo sapiens with 45 samples.

Results

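The transcripts of 10 tubulin isotypes, the products of separate genes for alpha- and beta-tubulin, were followed in 3 neuroblastoma lines treated with palbociclib (PB, an inhibitor of the cell cycle kinases CDK4 and CDK6). The members were taken by gene symbol from the count tables: the beta isotypes TUBB3, TUBB2A, TUBB2B, TUBB4A, TUBB4B and TUBB6 and the alpha isotypes TUBA1A, TUBA1B, TUBA1C and TUBA4A. All 10 were found among the 29159 genes listed, and all 10 passed the filter on low counts in each line. PolyA RNA was sequenced from IMR-32, SH-SY5Y and SK-N-BE(2)C cells, established lines of the adrenergic type, as control and with 1 μM PB for 24 h or for longer. The longer time was 7 d in SK-N-BE(2)C and 5 d in IMR-32 and SH-SY5Y, and each of the 9 groups had 5 replicates, 45 libraries in all. By the study's description SK-N-BE(2)C has MYCN amplified and loss of 1p, IMR-32 has MYCN and MEIS1 amplified and also lost 1p, and SH-SY5Y carries mutant ALK with gains of 1q and 17q. CDK4 and CDK6 are wild type in all 3. No source used here says whether the controls received a vehicle. The control cells were harvested alongside those treated for 24 h, so that time in culture cannot be told apart from PB at the longer time. Replicates are passages of 1 line plated in independent experiments, and each line stands for 1 tumor.

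Microtubules are polymers of alpha/beta-tubulin dimers. They form the mitotic spindle of dividing cells and the stable tracks that fill axons and dendrites, and the isotypes differ mainly in their acidic carboxy-terminal tails, where glutamate and tyrosine are added and removed by enzymes. TUBB3 is the classical marker of neurons among the beta isotypes, TUBB2A and TUBB2B are the main beta isotypes of developing brain, TUBB4A is made in brain, and TUBA1A is the principal alpha isotype of young neurons. TUBB4B, TUBB6, TUBA1B and TUBA1C are made in many tissues and in dividing cells. TUBA4A, whose gene encodes no terminal tyrosine, is kept apart from both groups here. Cells also hold tubulin messages in check through TTC5, which recognises newly made tubulin on the ribosome and starts the decay of its message when free dimers are abundant.

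The isotypes are close copies of each other, which sets what their counts can tell apart. The ends of the coding sequences of 4 beta members, shown because they encode the acidic tails and show how alike the closest copies are, were read from GRCh37 with the GENCODE annotation. Each of the following runs holds the last 63 coding bases, stop codon included, 5′ to 3′, and capitals in TUBB2B mark the 2 bases that differ from TUBB2A. These lie in a synonymous alanine codon and in the stop codon, so both runs encode the same tail.

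TUBB2A: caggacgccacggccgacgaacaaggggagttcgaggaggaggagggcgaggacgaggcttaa
TUBB2B: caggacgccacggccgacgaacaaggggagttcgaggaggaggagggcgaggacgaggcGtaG
TUBB3: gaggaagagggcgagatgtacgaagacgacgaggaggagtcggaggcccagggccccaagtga
TUBB4B: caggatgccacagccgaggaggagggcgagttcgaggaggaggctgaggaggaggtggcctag

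Over the whole coding sequence TUBA1A and TUBA1B were 97.2% identical. TUBB2A and TUBB2B were 98.1% identical, whereas TUBB3 and TUBB4B shared 84.3% of their aligned bases. Of all 100-base windows of the exons, 37.5% in TUBB2A, 23.0% in TUBB2B, 16.7% in TUBA1B and 10.2% in TUBA1A recurred elsewhere in the genome, against 2.53% in TUBB4B, 1.31% in TUBB3 and 0 in TUBB4A and TUBB6. STAR's gene counts leave out reads that align to several places, so the TUBB2A, TUBB2B, TUBA1A, TUBA1B and TUBA1C counts rest on part of each message. Exons on the opposite strand overlapped 1571 exonic bases of TUBA1B (TUBA1B-AS1), 1011 of TUBA1C (TUBA1A among them), 837 of TUBB6 (AFG3L2) and 740 of TUBA4A (STK16 and TUBA4B), and shorter stretches of TUBB4A, TUBA1A, TUBB2B, TUBB4B and TUBB2A. On the same strand, 1584 of the 7421 exonic bases of TUBB3 overlapped another annotated gene, so that its counts are uncertain whichever strand was counted. The kit was directional, but which strand was counted is not stated in any source used here.

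Libraries held 13459219 to 25441812 counts (median 18494528). Levels are given as CPM, a gene's count as a share of the library's total, scaled to 1000000 counts. All 8 adrenergic markers examined had counts in every library, with a summed level of 2024 to 7537 CPM over all groups. Among them TH was scarce in SH-SY5Y, with means of 0.349 CPM in the controls, 0.692 at 24 h and 0.364 at 5 d. In IMR-32, replicate 5 stood apart from the other replicates. Its mesenchymal markers summed to 1221 CPM in the control, the highest of the group (median 708), and its adrenergic markers to 2024 CPM, the lowest (median 2845). Among the mesenchymal markers FOSL1, CD44 and COL1A2 were at 0 in at least 1 IMR-32 control library. The main IMR-32 results are therefore also given without replicate 5. In SK-N-BE(2)C, replicates 3, 4 and 5 of the control and 24 h groups lay closer to each other than to replicates 1 and 2.

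In the control lines the alpha members were led by TUBA1B and TUBA1A. Per kb of exon, where levels of different genes can be compared, TUBA1B stood at 869, 1065 and 679 CPM per kb in SK-N-BE(2)C, followed by IMR-32 and SH-SY5Y (means of 5 controls), and TUBA1A at 447, 744 and 321. TUBB4B led the beta members at 298, 284 and 287 CPM per kb, above TUBB3 at 73.9, 90.0 and 67.4. This order of the beta members depends on the length used, because the annotated exons of TUBB3 span 7421 bases and its canonical transcript 1706. With canonical lengths TUBB3 was at 392 and TUBB4B at 370.4 CPM per kb in IMR-32, while TUBB4B still led in SK-N-BE(2)C (388 against 322) and SH-SY5Y (374 against 293). TUBA1C, TUBA4A and TUBB4A had low counts, at 2.74, 1.51 and 7.08 CPM per kb in SK-N-BE(2)C. The coding sequence of TUBA1C was 96.8% identical to that of TUBA1B, and how many of its reads went uncounted was not measured. TUBB, a widely expressed beta gene that is not among the members, was at 52.0 ± 4.96, 109 ± 5.27 and 1.23 ± 0.158 CPM (SD, n = 5) in the 3 control groups and takes no part in the shares given here.

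Between the control lines the members were called different about as often as all genes in 2 of the 3 pairs. A level was called different at an adjusted p under 0.05 and a log2 difference beyond 0.5. The call was made for 7 of the 10 members between IMR-32 and SK-N-BE(2)C, where 62.1% of all genes were called, for 7 between SH-SY5Y and SK-N-BE(2)C (57.5% of all genes) and for 9 between SH-SY5Y and IMR-32 (54.2%). TUBA4A had the widest difference among the members. Its controls were at 73.0 ± 11.7 CPM in IMR-32 (SD, n = 5), 5.57 ± 1.35 in SK-N-BE(2)C and 1.25 ± 0.182 for SH-SY5Y, a log2 difference of -6.05 ± 0.23 (adjusted p = 1.32e-25) between SH-SY5Y and IMR-32. TUBB2B was highest in IMR-32, 1.98 ± 0.19 (adjusted p = 5.47e-12) on the log2 scale above SK-N-BE(2)C, with SH-SY5Y in between. TUBB4A and TUBA1C ran the other way and were highest in SK-N-BE(2)C, with IMR-32 minus SK-N-BE(2)C differences of -3.16 ± 0.48 (adjusted p = 2.38e-07) for TUBB4A and -2.40 ± 0.28 (adjusted p = 5.65e-10) for TUBA1C. For TUBB4B the order of the lines cannot be told: the difference between IMR-32 and SK-N-BE(2)C was -0.09 ± 0.16 (95% interval -0.39 to 0.22), and that between SH-SY5Y and SK-N-BE(2)C -0.26 ± 0.16 (95% interval -0.56 to 0.05). TUBB3 was called between IMR-32 and SH-SY5Y alone among the 3 pairs (-0.60 ± 0.20, adjusted p = 0.00668). The members called numbered 7, 7 and 9 again without replicate 5 (62.6%, 57.4% and 54.8% of all genes), and that TUBB3 difference was -0.78 (adjusted p = 2.97e-06).

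TUBA1B, TUBB4B and TUBB6, 3 of the 4 widely expressed isotypes, fell under PB in every line, at 24 h and at the longer time. A change was called where the adjusted p was under 0.05 and the log2 fold change beyond 0.5 in an edgeR quasi-likelihood fit of the line. At 24 h, 2 members were higher and 3 lower in SK-N-BE(2)C, where 10.9% of genes were called higher and 10.6% lower. In IMR-32 2 were higher and 4 lower (7.87% and 10.5% of genes), and in SH-SY5Y 2 and 4 (10.5% and 11.0%). At the longer time 2 members were called higher and 3 lower among SK-N-BE(2)C libraries (24.5% and 22.3% of genes), 5 and 4 in IMR-32 (16.6% and 15.5%) and 1 and 5 in SH-SY5Y (18.6% and 17.3%). Without replicate 5, 6 members were called in IMR-32 at 24 h, beside 2907 genes in all, and all 10 at 5 d, beside 5040. The main IMR-32 fit called 2620 and 4576 genes at these times. The 24 h count of IMR-32 fell to 3 without replicate 1, 3 or 4, and without the 24 h library of replicate 3. In bulk RNA, fewer cells of a type and less message per cell cannot be told apart. Both treated times are compared with the same controls.

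TUBA1B (chr12:49521565-49525180, minus strand), the alpha isotype of most dividing cells, had the highest level per kb of all members in the controls. SK-N-BE(2)C libraries held TUBA1B at 3243, 3273, 2971, 2968 and 3074 CPM in the control libraries, 1484, 1495, 1053, 1071 and 1092 at 24 h and 1145, 445, 389.8, 836 and 753 after 7 d. IMR-32 libraries held TUBA1B at 3729.7, 3724, 3932, 3509 and 4133 CPM in the control libraries, 1535, 1886, 1548, 1507 and 1591 at 24 h and 1693, 1532, 1826, 1607 and 2097 after 5 d. SH-SY5Y libraries held TUBA1B at 2453, 2257, 2412, 2392 and 2626 CPM in the control libraries, 793, 662, 692, 816 and 719.5 at 24 h and 361, 449.6, 641, 708 and 831 after 5 d. No treated library came up to the controls of its line, and within the 7 d group replicates 2 and 3 lay far below replicate 1. The log2 fold change at 24 h was -1.36 ± 0.24 (adjusted p = 0.00035) in SK-N-BE(2)C, -1.19 ± 0.10 (adjusted p = 2.15e-07) for IMR-32 and -1.73 ± 0.17 (adjusted p = 5.57e-07) for SH-SY5Y (± SE throughout). At the longer time it was -2.16 ± 0.25 (adjusted p = 1.91e-06), -1.13 ± 0.10 (adjusted p = 9.44e-07) and -2.09 ± 0.18 (adjusted p = 4.28e-08). Without replicate 5 the IMR-32 values were -1.14 (adjusted p = 1.14e-07) at 24 h and -1.17 (adjusted p = 7.41e-08) at 5 d. With each replicate or library left out in turn, the late value stayed between -2.42 and -2.01 in SK-N-BE(2)C, between -1.21 and -1.08 for IMR-32 and between -2.25 and -1.94 for SH-SY5Y.

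TUBB4B (chr9:140135739-140138159, plus strand), a beta isotype of spindles and cilia, was the beta counterpart of this fall. SK-N-BE(2)C libraries held TUBB4B at 612, 636, 580.4, 596 and 611 CPM in the control libraries, 262, 315, 225, 212 and 221 at 24 h and 253, 117, 95.7, 196 and 167 after 7 d. IMR-32 libraries held TUBB4B at 605, 565, 559, 624 and 542 CPM in the control libraries, 307, 349.8, 285, 324 and 238 at 24 h and 343, 331, 319.5, 311 and 398 after 5 d. SH-SY5Y libraries held TUBB4B at 625, 534, 631, 565 and 571 CPM in the control libraries, 297, 244, 256, 249 and 237 at 24 h and 159.7, 175, 221, 233 and 263 after 5 d. The control groups of the lines overlapped, and no treated library reached its line's controls. Log2 fold changes were -1.33 ± 0.21 (adjusted p = 0.000128), -0.90 ± 0.10 (adjusted p = 7.48e-06) and -1.20 ± 0.11 (adjusted p = 1.65e-07) at 24 h and -1.91 ± 0.22 (adjusted p = 1.49e-06), -0.78 ± 0.10 (adjusted p = 2.59e-05) and -1.54 ± 0.12 (adjusted p = 6.11e-09) at the longer time, in the order SK-N-BE(2)C, followed by IMR-32 and SH-SY5Y. Without replicate 5 the IMR-32 values were -0.84 (adjusted p = 5.49e-07) and -0.86 (adjusted p = 2.78e-07). TUBB6 (chr18:12307668-12344319, plus strand), a beta isotype of dividing and mesenchymal cells, was called lower in all 3 lines. IMR-32 libraries held TUBB6 at 60.3, 55.6, 51.5, 52.2 and 95.7 CPM in the control libraries, 17.4, 19.6, 14.9, 17.5 and 32.01 at 24 h and 6.57, 5.78, 9.34, 6.25 and 13.6 after 5 d. SK-N-BE(2)C libraries had 109.9, 106, 110.1, 113 and 113 CPM in the control libraries, 73.9, 80.2, 69.1, 67.1 and 74.9 at 24 h and 55.6, 31.1, 29.4, 49.7 and 39.8 after 7 d. SH-SY5Y libraries had 114, 97.2, 121, 86.4 and 89.7 CPM in the control libraries, 73.0, 64.7, 68.2, 53.2 and 53.5 at 24 h and 27.7, 26.1, 31.0, 31.3 and 27.8 after 5 d. The 3 TUBB6 groups of each line did not overlap and stepped down from control to 24 h to the longer time. TUBB6 changed by -0.63 ± 0.14 (adjusted p = 0.00161), -1.60 ± 0.27 (adjusted p = 0.000327) and -0.72 ± 0.10 (adjusted p = 1.20e-05) at 24 h and by -1.47 ± 0.14 (adjusted p = 1.80e-07), -2.94 ± 0.28 (adjusted p = 2.16e-06) and -1.89 ± 0.10 (adjusted p = 2.12e-10) later, on the log2 scale. Within IMR-32, replicate 5 had the highest TUBB6 in every group, and without replicate 5 the 24 h and 5 d changes were -1.60 (adjusted p = 3.58e-08) and -2.98 (adjusted p = 2.67e-10). Its high mesenchymal markers moved with this level, and their part in it was not tested.

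**Figure D1:**
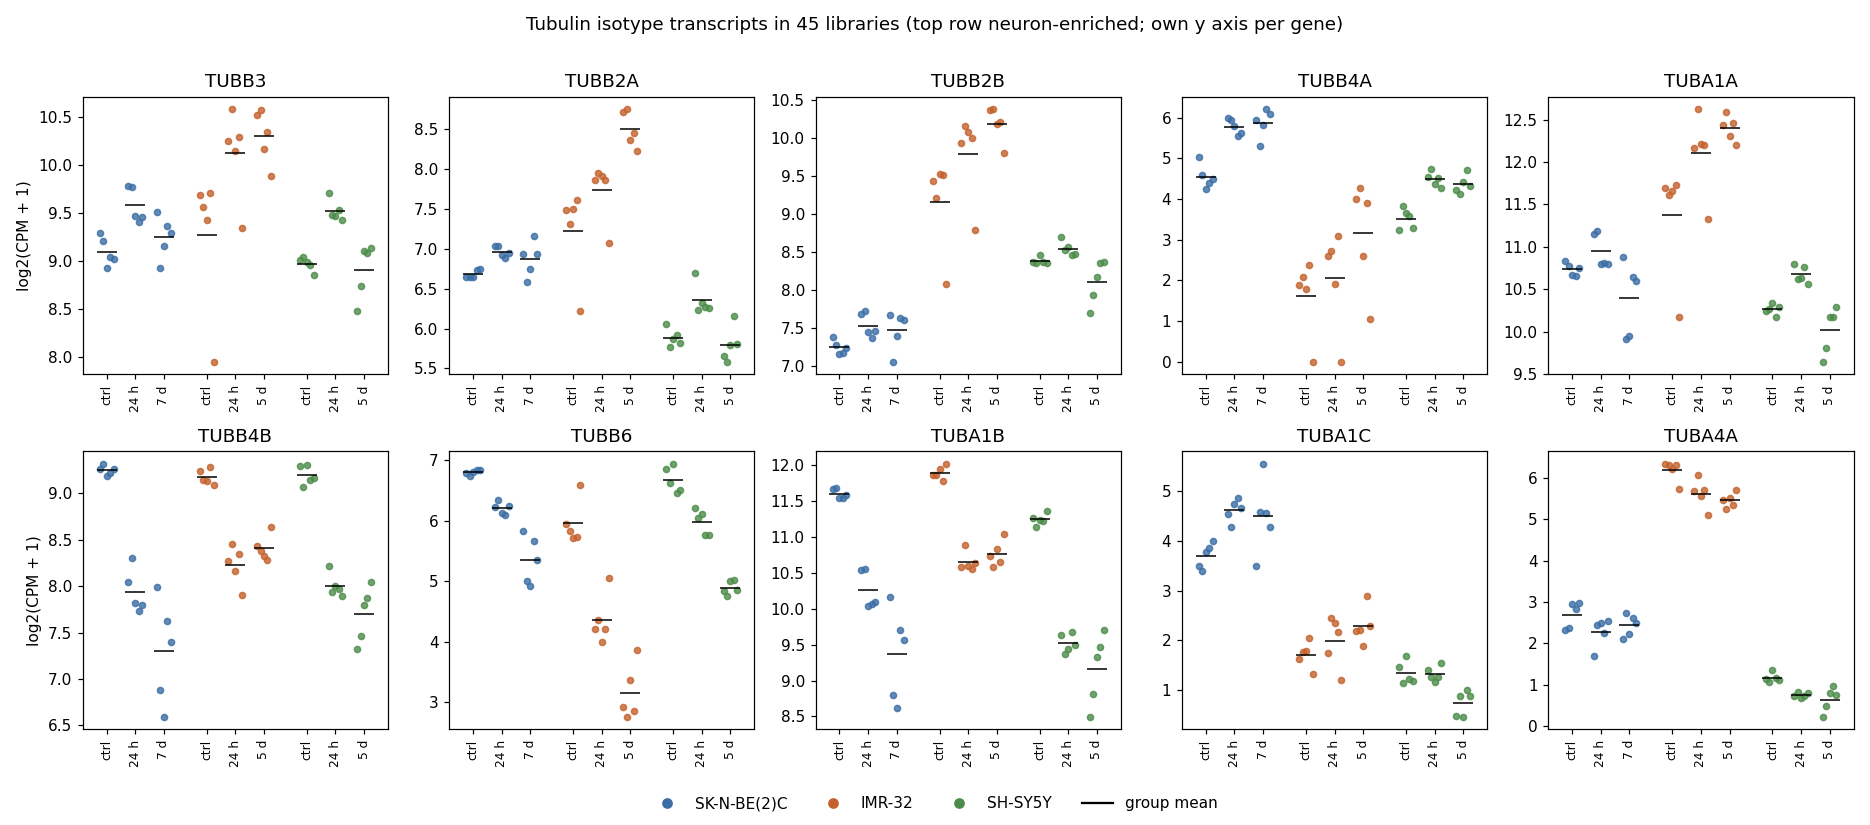
Each point is 1 of 45 libraries, each panel 1 gene with its own y axis in log2(CPM + 1), and bars are means of the 5 libraries of a group. The top row holds the neuron-enriched isotypes, the bottom row the widely expressed ones and TUBA4A. TUBB4B, TUBB6 and TUBA1B under PB lie below every control of the same line in all lines, whereas TUBB3, TUBB2A, TUBB2B and TUBA1A at 5 d lie above all controls in IMR-32 and overlap the controls at the longer time in the other lines. The low control point of IMR-32 in these 4 panels is replicate 5.

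The promoters of the pair that fell together, TUBB4B and TUBA1B, are given as the 250 bases before the RefSeq start, found in GRCh37 at chr9:140135489-140135738, plus strand, and at chr12:49525179-49525428, minus strand. Capitals mark matches on either strand to TTTGAA (the core of the cell cycle homology region) and CCAAT, which did not overlap in these windows. The E2F-like TTCCCGC was also searched.

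TUBB4B: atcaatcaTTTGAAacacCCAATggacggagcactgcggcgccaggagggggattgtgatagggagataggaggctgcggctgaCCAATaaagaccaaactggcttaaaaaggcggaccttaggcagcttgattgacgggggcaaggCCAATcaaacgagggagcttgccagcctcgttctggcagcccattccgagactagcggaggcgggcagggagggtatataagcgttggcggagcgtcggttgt
TUBA1B: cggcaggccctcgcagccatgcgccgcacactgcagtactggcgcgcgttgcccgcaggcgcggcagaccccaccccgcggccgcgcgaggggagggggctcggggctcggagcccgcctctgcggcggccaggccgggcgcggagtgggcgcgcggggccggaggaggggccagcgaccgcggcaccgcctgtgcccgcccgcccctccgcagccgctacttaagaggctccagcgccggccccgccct

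TUBB4B held 1 TTTGAA and 3 CCAAT, and TUBA1B none of the 3 motifs. Among 35116 promoters searched over the same 250 bases, 13.3% held TTTGAA, 32.01% CCAAT and 5.52% TTCCCGC. Of the 15 starts listed for the members, all with an entry in RefSeq (GRCh38.p14 table), none held TTCCCGC. TUBA1C, which fell in SH-SY5Y and rose in SK-N-BE(2)C, had 3 listed starts, each with 1 CCAAT, of which 1 also held 2 TTTGAA and another 1 TTTGAA. TUBA1A held 2 CCAAT, as did 1 of the 2 TUBB4A starts, while TUBB2B and 1 of the 2 starts of each of TUBB3 and TUBB6 held 1. These are matches of letters in a window, not sites.

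TUBB3 (chr16:89987800-90005169, plus strand), the neuronal marker of the family, was called higher at 24 h in IMR-32 and SH-SY5Y, and at the longer time in IMR-32. TUBB3 in SK-N-BE(2)C was at 624, 589.9, 485, 525 and 519 CPM in the control libraries, 879, 872, 709, 678 and 699.7 at 24 h and 728, 487, 569, 655 and 623 after 7 d. IMR-32 libraries held TUBB3 at 819.9, 753, 688, 834 and 246 CPM in the control libraries, 1212, 1527, 1132, 1253 and 646 at 24 h and 1467, 1515, 1144, 1295 and 946 after 5 d. SH-SY5Y libraries held TUBB3 at 512, 526, 508, 496 and 461 CPM in the control libraries, 834, 711, 704, 739.6 and 687 at 24 h and 355, 427, 547, 539 and 560.3 after 5 d. At 24 h the groups did not overlap in SK-N-BE(2)C and SH-SY5Y, while in IMR-32 the 24 h library of replicate 5 lay among the controls. TUBB3 was higher at 24 h than in the control of the same replicate number in 5 of 5 IMR-32 pairs, and under the replicate block its change was 0.88 (adjusted p = 0.000352). The 24 h log2 fold change was 0.45 ± 0.11 (adjusted p = 0.00373) in SK-N-BE(2)C, under the fold limit of the call, 0.84 ± 0.28 (adjusted p = 0.0323) for IMR-32 and 0.54 ± 0.11 (adjusted p = 0.000373) for SH-SY5Y. The SK-N-BE(2)C change was called without control replicate 1 (0.505, adjusted p = 0.00292). At the longer time TUBB3 rose only in IMR-32 among the 3 lines (0.92 ± 0.28, adjusted p = 0.0137), with 0.12 ± 0.11 (adjusted p = 0.362) in SK-N-BE(2)C and -0.11 ± 0.11 (adjusted p = 0.378) for SH-SY5Y. From 24 h to 5 d TUBB3 fell in SH-SY5Y (-0.65 ± 0.11, adjusted p = 0.000142), every 5 d library lying below every 24 h library. Without replicate 5 the IMR-32 changes were 0.79 (adjusted p = 4.55e-05) at 24 h and 0.80 (adjusted p = 1.99e-05) at 5 d. The 24 h call in IMR-32 was lost when replicate 1, 2, 3 or 4 was left out of all groups, and when control library 3 or any of the 24 h libraries 1 to 4 was left out (adjusted p 0.0513 to 0.114), it was also lost with no filter on low counts (adjusted p = 0.0897), and the SH-SY5Y call when the 24 h library of replicate 1 was (log2 fold change 0.499).

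TUBA1A (chr12:49578469-49582863, minus strand), the alpha isotype of young neurons, was called higher at 24 h and at 5 d in IMR-32. SK-N-BE(2)C libraries held TUBA1A at 1827, 1746, 1626, 1615 and 1728 CPM in the control libraries, 2268, 2323, 1783, 1799 and 1780.1 at 24 h and 1879, 964, 988, 1595 and 1553 after 7 d. IMR-32 libraries held TUBA1A at 3302, 3126, 3245, 3383 and 1157 CPM in the control libraries, 4586, 6303, 4735, 4693 and 2572 at 24 h and 5551, 6149, 5075, 5651 and 4692 after 5 d. SH-SY5Y libraries held TUBA1A at 1216, 1232, 1291, 1153 and 1251 CPM in the control libraries, 1784, 1569.7, 1588, 1740.0 and 1507 at 24 h and 800.3, 899.7, 1157, 1154 and 1249 after 5 d. In IMR-32 every 5 d library exceeded every control. In SK-N-BE(2)C replicates 2 to 5 of the 7 d group lay below all controls and replicate 1 above them. The late log2 fold change was 0.92 ± 0.26 (adjusted p = 0.00794) in IMR-32, -0.33 ± 0.16 (adjusted p = 0.0835) in SK-N-BE(2)C and -0.29 ± 0.11 (adjusted p = 0.0222) for SH-SY5Y, the last under the fold limit. At 24 h it was 0.74 ± 0.26 (adjusted p = 0.0374), 0.19 ± 0.16 (adjusted p = 0.369) and 0.40 ± 0.11 (adjusted p = 0.00414) in the same order. Without replicate 5 the IMR-32 values were 0.70 (adjusted p = 9.93e-05) at 24 h and 0.77 (adjusted p = 1.94e-05) at 5 d. The 24 h call was lost when replicate 1, 2, 3 or 4 was left out of all groups, and when control library 2 or any of the 24 h libraries 1 to 4 was (adjusted p 0.0556 to 0.142), with no filter (adjusted p = 0.0959) and with library size alone as the scaling (adjusted p = 0.0533). TUBA1A was higher at 24 h in 5 of 5 same-numbered IMR-32 pairs, with 0.76 (adjusted p = 0.00237) under the replicate block. Between the treated times TUBA1A fell in SH-SY5Y (-0.69 ± 0.11, adjusted p = 7.72e-05) and in SK-N-BE(2)C (-0.52 ± 0.17, adjusted p = 0.0133), the second call being lost without replicate 2 or 3, without their 7 d libraries, or without the 24 h library of replicate 1 or 2.

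TUBB2A (chr6:3153731-3157778, minus strand) and TUBB2B (chr6:3223558-3231964, minus strand), the beta isotypes of developing brain, rose at 5 d in IMR-32. TUBB2A was at 179, 157, 179, 195 and 73.8 CPM in the control libraries, 232, 246, 241, 231 and 133 at 24 h and 417, 429, 328, 349 and 299 after 5 d in IMR-32. TUBB2B was at 689.5, 589.6, 736, 727 and 268 CPM in the control libraries, 975, 1141, 1077, 1019.6 and 438 at 24 h and 1313, 1326, 1163, 1182 and 894 after 5 d in the same line. Both isotypes had every 5 d library above every control, and in both the low control was replicate 5. On the log2 scale the 5 d changes were 1.21 ± 0.22 (adjusted p = 0.00046) for TUBB2A and 0.96 ± 0.27 (adjusted p = 0.00824) for TUBB2B, and 1.09 (adjusted p = 7.99e-08) and 0.85 (adjusted p = 9.66e-07) without replicate 5. At 24 h neither was called in IMR-32 (0.52 ± 0.22, adjusted p = 0.0851, and 0.68 ± 0.27, adjusted p = 0.063), but both were with the replicate number as a block (0.54, adjusted p = 0.00465, and 0.68, adjusted p = 0.00141). Without replicate 5 the 24 h change of TUBB2B was called (0.68, adjusted p = 2.13e-05), as it was by DESeq2 with all libraries (0.65, adjusted p = 0.038), and that of TUBB2A was 0.48 (adjusted p = 0.000615), under the fold limit. In SK-N-BE(2)C and SH-SY5Y no TUBB2A or TUBB2B change passed the fold limit against control. At 24 h the TUBB2A change was 0.47 ± 0.11 (adjusted p = 0.00124) in SH-SY5Y, where it was called without control replicate 1 (0.51, adjusted p = 0.00138), and 0.25 ± 0.08 (adjusted p = 0.0189) in SK-N-BE(2)C, with all treated libraries above all controls in both. That of TUBB2B was 0.15 ± 0.10 (adjusted p = 0.23) and 0.26 ± 0.11 (adjusted p = 0.0568). The late values came to 0.16 ± 0.08 (adjusted p = 0.0846) and 0.20 ± 0.11 (adjusted p = 0.105) in SK-N-BE(2)C and -0.15 ± 0.11 (adjusted p = 0.235) and -0.32 ± 0.10 (adjusted p = 0.011) for SH-SY5Y. Group means of TUBB2A ran from 102 ± 3.58 through 124 ± 5.74 to 117 ± 17.6 CPM (SK-N-BE(2)C) and from 58.3 ± 4.58 through 81.4 ± 11.9 to 55.3 ± 9.18 in SH-SY5Y (SD, n = 5).

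TUBB4A (chr19:6494330-6502859, minus strand), a brain isotype present at low levels here, rose in SK-N-BE(2)C and SH-SY5Y at both times. TUBB4A in SK-N-BE(2)C was at 31.8, 22.9, 18.0, 19.8 and 21.5 CPM in the control libraries, 62.0, 60.1, 54.2, 46.0 and 48.0 at 24 h and 60.0, 38.5, 55.5, 72.7 and 67.5 after 7 d. SH-SY5Y libraries held TUBB4A at 8.36, 13.1, 11.6, 11.0 and 8.72 CPM in the control libraries, 22.3, 25.5, 19.8, 21.9 and 18.4 at 24 h and 17.7, 16.3, 20.2, 25.3 and 18.9 after 5 d. IMR-32 libraries held TUBB4A at 2.70, 3.26, 2.45, 4.18 and 0 CPM in the control libraries, 5.08, 5.56, 2.78, 7.49 and 0 at 24 h and 14.95, 18.1, 5.04, 14.0 and 1.06 after 5 d. In SK-N-BE(2)C and SH-SY5Y all treated libraries exceeded all controls, and in IMR-32 replicate 5 had no TUBB4A count in the control and 24 h groups. At 24 h and 7 d TUBB4A changed by 1.21 ± 0.17 (adjusted p = 4.06e-05) and 1.32 ± 0.17 (adjusted p = 5.73e-06) on the log2 scale in SK-N-BE(2)C, and it changed by 1.02 ± 0.14 (adjusted p = 6.68e-06) and 0.84 ± 0.14 (adjusted p = 3.36e-05) for SH-SY5Y. In IMR-32 the 5 d change of 2.05 ± 0.87 (adjusted p = 0.0622) was not called, nor was the 24 h change of 0.78 ± 0.87 (adjusted p = 0.526), which was 0.77 (adjusted p = 0.119) without replicate 5. The 5 d change was called without replicate 5 (2.03, adjusted p = 0.000336) and with the replicate number as a block (2.08, adjusted p = 5.98e-05), as was the step from 24 h to 5 d (1.35, adjusted p = 0.00212 with the block).

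TUBA1C (chr12:49582519-49668383, plus strand), a widely expressed alpha isotype, went opposite ways in the lines. TUBA1C in SK-N-BE(2)C was at 10.3, 9.52, 12.7, 13.5 and 14.9 CPM in the control libraries, 22.3, 18.4, 25.6, 28.2 and 24.3 at 24 h and 10.3, 22.9, 45.6, 22.7 and 18.5 after 7 d. SH-SY5Y libraries had 1.77, 1.21, 2.24, 1.34 and 1.27 CPM in the control libraries, 1.66, 1.40, 1.25, 1.41 and 1.94 at 24 h and 0.392, 0.837, 0.386, 1.01 and 0.846 after 5 d. IMR-32 libraries had 2.08, 2.40, 2.45, 3.13 and 1.49 CPM in the control libraries, 2.35, 4.46, 4.12, 3.53 and 1.32 at 24 h and 3.55, 3.60, 2.69, 6.47 and 3.86 after 5 d. In SH-SY5Y all 5 d libraries lay below all controls, on 7 to 18 counts each, whereas in SK-N-BE(2)C replicate 1 at 7 d lay among the controls and replicate 3 far above the rest. TUBA1C rose by 0.93 ± 0.28 (adjusted p = 0.0141) at 24 h and 0.95 ± 0.28 (adjusted p = 0.00771) at 7 d in SK-N-BE(2)C and changed by -1.25 ± 0.28 (adjusted p = 0.000689) at 5 d in SH-SY5Y, on the log2 scale. Without the 7 d library of replicate 3 the SK-N-BE(2)C value was 0.57 (adjusted p = 0.0194), and without replicate 4 in all groups the 24 h call was lost (adjusted p = 0.0597). The 5 d call in IMR-32 (0.79 ± 0.31, adjusted p = 0.0447) rested on 26 to 118 counts a library and was lost in 13 of the 20 fits that left out a replicate or a library, and with no filter (adjusted p = 0.0568). Without replicate 5 it was 0.68 (adjusted p = 0.0339). TUBA4A (chr2:220114432-220142624, minus strand), an alpha isotype of muscle, brain and platelets, was lower at 5 d in IMR-32 (-0.76 ± 0.16, adjusted p = 0.00121) and SH-SY5Y (-1.16 ± 0.29, adjusted p = 0.00197). IMR-32, the line rich in it, had 80.3, 79.4, 73.5, 79.2 and 52.6 CPM in the control libraries, 50.3, 66.1, 46.4, 51.2 and 33.3 at 24 h and 43.2, 37.3, 44.9, 39.6 and 51.4 after 5 d. Its 24 h change in IMR-32 (-0.51 ± 0.16, adjusted p = 0.0241) lay at the fold limit and was -0.49 (adjusted p = 0.00189) without replicate 5, not called, against -0.93 (adjusted p = 2.62e-06) at 5 d. The 24 h call was lost in 9 of the fits that left out a replicate or a library, those without replicate 1, 3, 4 or 5, control library 1, 2 or 4, or the 24 h library of replicate 3 or 5 (-0.49 to -0.39, adjusted p 0.00189 to 0.11). SH-SY5Y held at most 1.56 CPM, and its 24 h call (-0.89 ± 0.29, adjusted p = 0.0151) was lost without replicate 3 (adjusted p = 0.081). In SK-N-BE(2)C the 24 h change was -0.52 ± 0.22 (adjusted p = 0.0602), called with the replicate number as a block (adjusted p = 0.017) and by DESeq2 (adjusted p = 0.0428).

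**Figure D2:**
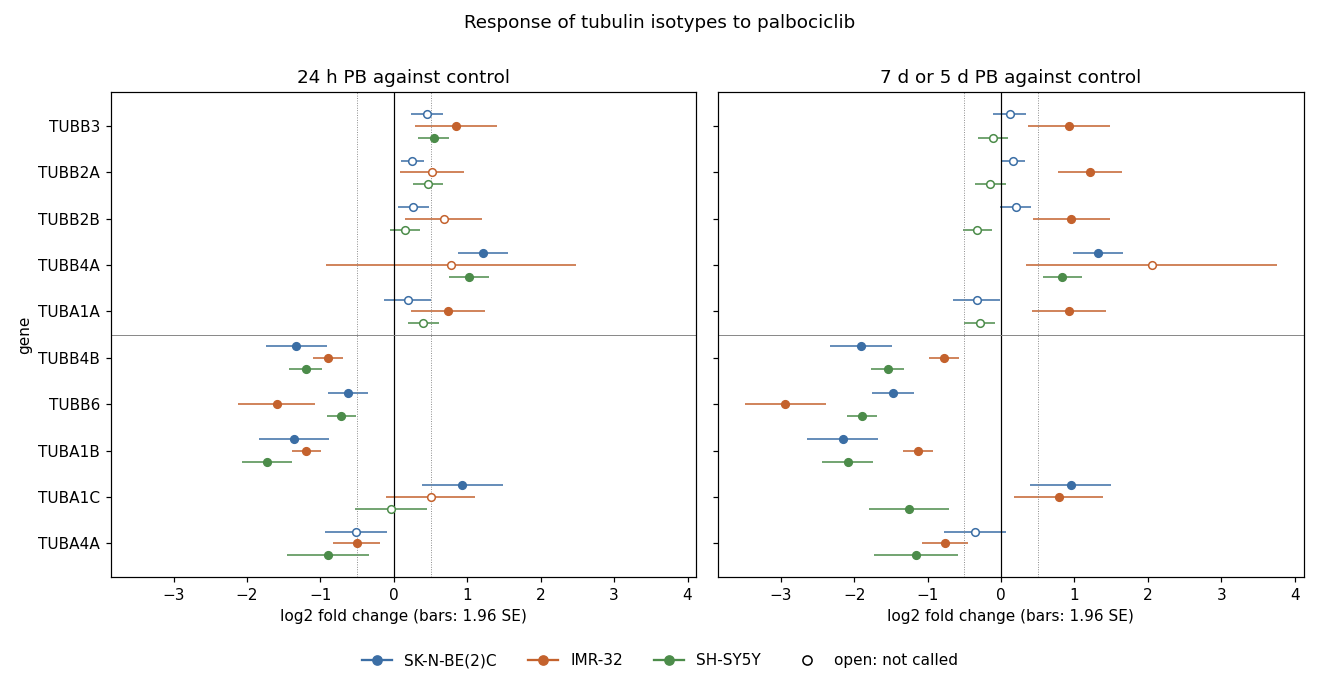
Log2 fold changes (x axis) of the 10 members against the control of the same line, at 24 h (left) and at 7 d in SK-N-BE(2)C or 5 d in the other lines (right), with bars for 95% intervals and n = 5 libraries a group. Filled points are called (adjusted p under 0.05 and beyond the dotted lines at 0.5), and TUBB4B, TUBB6 and TUBA1B are filled on the left of 0 in every line at both times.

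Between the treated times members were called lower and none higher in SK-N-BE(2)C and SH-SY5Y. In SH-SY5Y the members called lower included genes that had been above control at 24 h. From 24 h to 7 d in SK-N-BE(2)C no member was called higher and 4 lower, TUBA1A, TUBB4B, TUBB6 and TUBA1B, beside 17.5% and 14.4% of all genes. TUBB6 changed by -0.84 ± 0.14 (adjusted p = 0.000111), and its 2 groups did not overlap. The count of 4 dropped to 1 without replicate 2 and to 2 without replicate 3 or without the 7 d library of either, and also to 2 without the 24 h library of replicate 1 or 2. TUBA1A and TUBB4B were the calls lost in each of these, TUBB4B also without replicate 5 and with no filter (adjusted p = 0.0562), and TUBA1B was lost without replicate 2 (adjusted p = 0.0702). In IMR-32 TUBB2A rose (0.69 ± 0.22, adjusted p = 0.026) and TUBB6 fell (-1.34 ± 0.27, adjusted p = 0.00183), 1 member in each direction beside 10.8% and 8.86% of genes. Without replicate 5, 3 members were called, TUBB4A being the third (1.25, adjusted p = 0.00988), beside 3518 genes in all (2803 in the main fit). The TUBB2A call was lost without replicate 1, 2, 3 or 4 and without the 5 d library of replicate 1 or 2 (adjusted p 0.0589 to 0.1), and with no filter (adjusted p = 0.0623). In SH-SY5Y 5 members fell and none rose, beside 6.23% and 10.5% of genes. These were TUBB3, TUBA1A, TUBB2A (-0.62 ± 0.11, adjusted p = 0.000229), TUBB6 (-1.17 ± 0.10, adjusted p = 5.61e-07) and TUBA1C (-1.21 ± 0.28, adjusted p = 0.00234), each with all 5 d libraries below all 24 h libraries. Without replicate 1 the TUBB2A value was -0.48, under the fold limit. In SH-SY5Y the 24 h level of TUBB3 and TUBA1A was a high point between control and 5 d levels that overlap, while in IMR-32 the 24 h and 5 d levels of TUBB3 (0.08 ± 0.28, adjusted p = 0.85) and TUBA1A (0.18 ± 0.26, adjusted p = 0.616) overlapped.

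As shares of the measured members, the neuron-enriched isotypes were higher under PB in all 3 lines, including those where none of TUBB3, TUBB2A, TUBB2B and TUBA1A was called higher at the longer time. Shares were taken per library from CPM per exonic kb, over the 6 beta members and over the 4 alpha members, and carry no test. TUBB3, TUBB2A, TUBB2B and TUBB4A together made up 31.8% ± 1.18 of the beta members in control SK-N-BE(2)C (SD, n = 5), 59.8% ± 1.65 at 24 h and 67.5% ± 5.73 at 7 d. In IMR-32 the shares were 47.7% ± 10.1, 74.0% ± 4.80 and 77.1% ± 4.61, and in SH-SY5Y 35.3% ± 1.49, 61.2% ± 0.537 and 58.8% ± 1.23. Every treated library had a higher share than every control of its line. TUBA1A made up 33.8% ± 0.511, 59.7% ± 0.971 and 64.6% ± 2.95 of the alpha members in SK-N-BE(2)C, 39.7% ± 10.8, 71.0% ± 6.38 and 73.7% ± 4.43 for IMR-32 and 32.1% ± 1.35, 67.5% ± 1.13 and 62.8% ± 3.63 for SH-SY5Y. TUBA1B made up nearly all of the rest, as far as the reads of the alpha copies were counted. TUBB3 alone went from 15.4% ± 1.03 to 30.3% ± 2.54 of the beta members in SK-N-BE(2)C, from 14.8% ± 3.86 to 22.7% ± 1.87 for IMR-32 and from 14.0% ± 0.918 to 24.4% ± 1.07 for SH-SY5Y. The levels of these shares depend on the length used: with canonical lengths the control and late shares of TUBB3 were 34.9% and 53.2%, 31.3% and 41.0%, and 31.4% and 45.7%, and those of the neuron-enriched beta members 51.3% and 81.5%, 64.6% and 87.4%, and 54.2% and 75.9%, in the order used above. In IMR-32 replicate 5 had the lowest share in each group, and without it the late gain of the neuron-enriched beta members was 26.9 percentage points and that of TUBA1A 30.8.

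The summed level of the members did not take 1 direction in the 3 lines. The 10 members summed to 6373 ± 305 CPM in control SK-N-BE(2)C (SD, n = 5), 4707 ± 677 at 24 h and 3312 ± 904 at 7 d. SH-SY5Y went from 5247 ± 168 through 3905 ± 276 to 2729 ± 573, no 5 d library reaching a control. IMR-32 stood at 8795 ± 1256, 8870.2 ± 2087 and 10395 ± 766 CPM, groups that overlap. The IMR-32 sums without replicate 5 were 9351 ± 199 CPM in the controls, 9666 ± 1258 at 24 h and 10645 ± 605 at 5 d (SD, n = 4), and the 5 d group (lowest 9918) then lay above the controls (highest 9471). The share gained by the neuron-enriched isotypes went with lower TUBA1B and TUBB4B in every line, with higher TUBB3, TUBB2A, TUBB2B and TUBA1A at 5 d in IMR-32, and with higher TUBB4A at both times in the other lines. In SH-SY5Y all 24 h libraries exceeded all controls for TUBB3, TUBB2A, TUBB2B and TUBA1A, of which TUBB3 passed the fold limit. For TUBB2B the margin was slight, the lowest 24 h library being at 349.3 CPM and the highest control at 349.0. Its log2 fold change in the edgeR fit (0.15 ± 0.10, adjusted p = 0.23) met neither limit of the call. Such a separation of libraries carries no test.

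**Figure D3:**
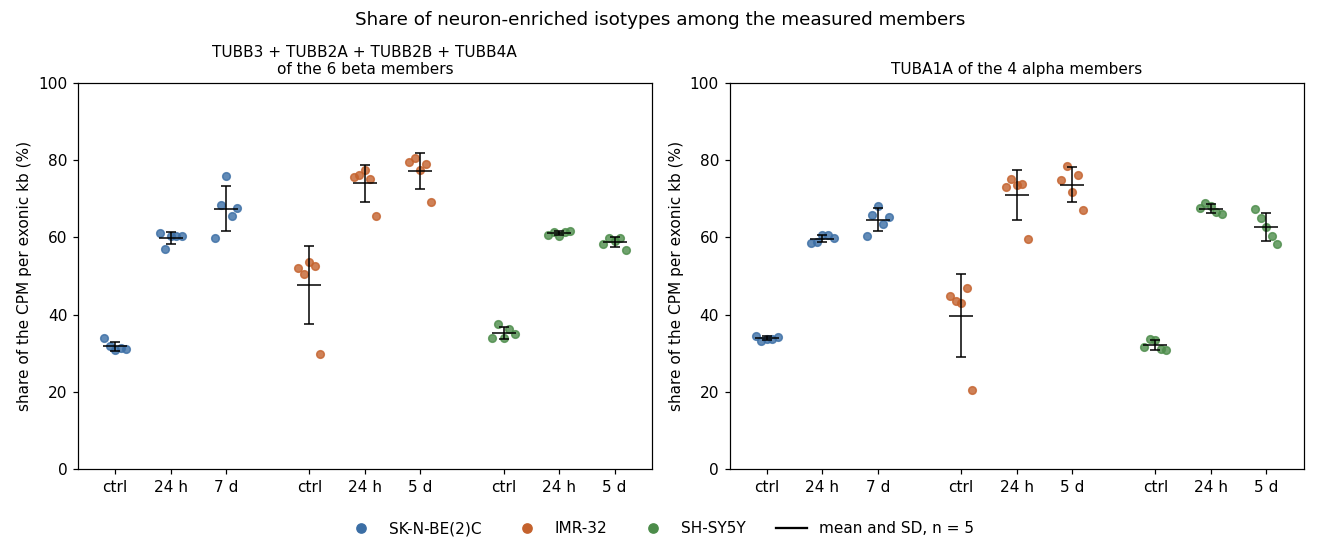
Share, in percent of CPM per exonic kb, of TUBB3, TUBB2A, TUBB2B and TUBB4A among the 6 beta members (left) and of TUBA1A among the 4 alpha members (right), with 1 point per library and black bars for the mean and SD of 5. All treated libraries lie above all controls of their line, and the low control point of IMR-32 is replicate 5.

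Whether the lines responded differently was tested as a difference of fold changes in 1 fit of all 45 libraries. At 24 h, 1 of the 10 members was called, TUBB6 (F test over the 3 lines, adjusted p = 0.0175), beside 9.43% of all genes. That call was lost without replicate 1, 2, 3 or 4 (adjusted p 0.0765 to 0.0949). The count of all genes behind this share was unsteady, rising from 1536 to 3126 with the replicate number as a block. At the longer time 8 of 10 were called, all but TUBB4A and TUBA4A, beside 52.4% of all genes. TUBB3 was no longer called without replicate 2 (adjusted p = 0.0621), and TUBB4A was called with the replicate number as a block (adjusted p = 0.00675). Without replicate 5 both TUBB4A and TUBA4A were called (adjusted p = 0.0411 and 0.0349). The longer treatment was 7 d in SK-N-BE(2)C and 5 d elsewhere, so line and duration cannot be told apart in its comparisons.

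Most of the called differences involved IMR-32. Against SK-N-BE(2)C, 7 members were called (34.5% of all genes): the late log2 fold change was higher in IMR-32 by 0.77 ± 0.28 (adjusted p = 0.0285) for TUBB3, 1.01 ± 0.23 (adjusted p = 0.000543) for TUBB2A, 0.72 ± 0.27 (adjusted p = 0.0322) for TUBB2B and 1.22 ± 0.28 (adjusted p = 0.000736) for TUBA1A. It was also less negative for TUBB4B (1.11 ± 0.22, adjusted p = 0.000158) and TUBA1B (0.999 ± 0.27, adjusted p = 0.00317), and more negative for TUBB6 (-1.49 ± 0.27, adjusted p = 4.68e-05). Against SH-SY5Y, 8 members were called (30.6% of all genes), the same 7 with the same direction of IMR-32 and TUBA1C, which fell in SH-SY5Y (-1.97 ± 0.47, adjusted p = 0.00139 for SH-SY5Y minus IMR-32). The SH-SY5Y minus IMR-32 differences were -0.97 ± 0.28 (adjusted p = 0.00698) for TUBB3 and -1.15 ± 0.28 (adjusted p = 0.00157) for TUBA1A. Between SH-SY5Y and SK-N-BE(2)C 1 member was called (31.6% of all genes), TUBA1C with -2.16 ± 0.45 (adjusted p = 0.000276). For TUBB3 that difference was -0.20 ± 0.28 (95% interval -0.74 to 0.35), for TUBA1A 0.07 ± 0.28 (95% interval -0.48 to 0.62) and for TUBA1B 0.10 ± 0.26 (95% interval -0.42 to 0.62), intervals that leave room for differences of either sign. Without replicate 5, 8 members were called between IMR-32 and SK-N-BE(2)C (36.5% of all genes), 9 between SH-SY5Y and IMR-32 (33.7%) and 2 between SH-SY5Y and SK-N-BE(2)C (30.3%). The members added were TUBA4A (-0.69, adjusted p = 0.0329), TUBB4A (-1.17, adjusted p = 0.0223) and TUBB2B (-0.53, adjusted p = 0.0159), in that order of pairs.

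**Figure D4:**
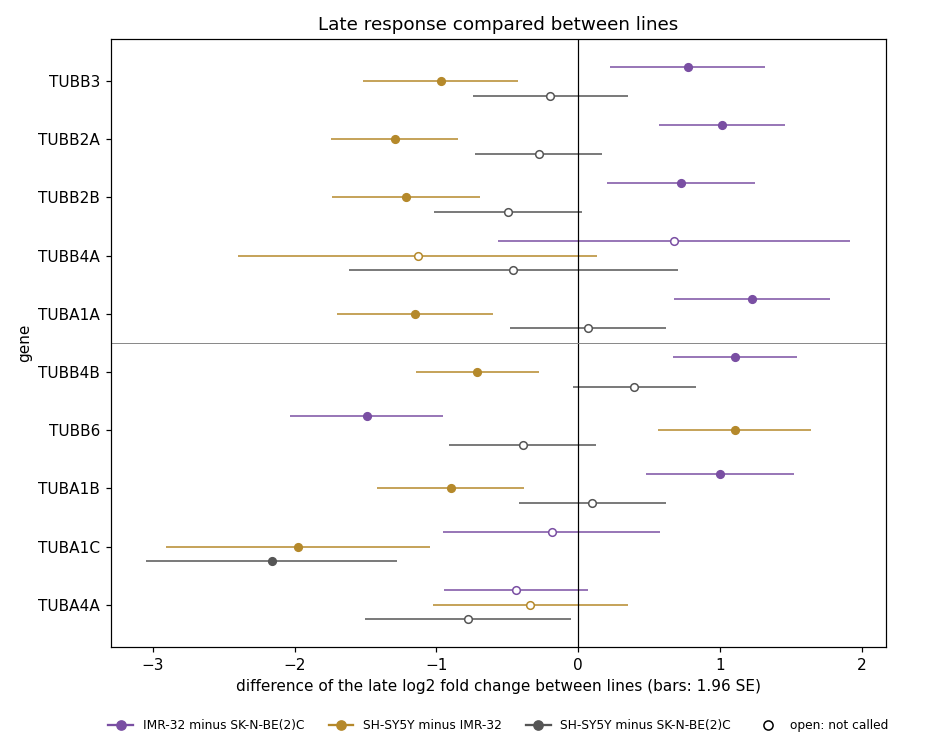
Differences of the late log2 fold change between pairs of lines for the 10 members, from the fit of 45 libraries, with bars for 95% intervals. Filled points have an adjusted p under 0.05. For TUBB3, TUBB2A, TUBB2B, TUBA1A, TUBB4B and TUBA1B the IMR-32 response is the higher one in both of its pairs, and for TUBB6 the lower one.

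Over the 45 libraries, with log2(CPM + 1) centred on each line's mean, likeness was measured by Pearson's r. Among 11621 genes with a mean of at least 1 CPM in every line, those most like TUBB3 were TUBB2B (r = 0.93), TUBA1A (r = 0.93) and PCDH17 (r = 0.89), and those most like TUBA1A were TUBB3 (r = 0.93), TUBB2B (r = 0.90) and TUBB2A (r = 0.85). Those most like TUBB4B were TUBA1B (r = 0.98), LMNB1 (r = 0.98) and EZH2 (r = 0.96), and those most like TUBA1B were TUBB4B (r = 0.98), HMGN2 (r = 0.98) and LMNB1 (r = 0.98). Pearson correlations describe libraries that share treatment groups and, for TUBA1A with TUBA1B and TUBB2A with TUBB2B, part of their sequence, and carry no test. Within single lines (15 libraries each) the r of TUBA1A was 0.70, 0.99 and 0.95 with TUBB3, 0.55, 0.98 and 0.92 with TUBB2B and 0.50, 0.93 and 0.85 with TUBB2A in SK-N-BE(2)C, followed by IMR-32 and SH-SY5Y. IMR-32 replicate 5 was low for both TUBB3 and TUBA1A.

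The rest of the tubulin system is given by counts at the longer time against control, in lists set beside the members. The median log2 fold change of the neuron-enriched members was 0.16, 0.96 and -0.15 in SK-N-BE(2)C, followed by IMR-32 and SH-SY5Y, that of the widely expressed members -1.69, -0.95 and -1.72, and that of all genes tested 0.01, 0.00 and 0.01. In the same order 24.5%, 16.6% and 18.6% of all genes were called higher and 22.3%, 15.5% and 17.3% lower, and the lists carry no test against these shares. The other alpha and beta tubulin genes had 0 higher and 1 lower of 1 tested in SK-N-BE(2)C, 0 and 0 of 2 for IMR-32 and 0 and 1 of 2 for SH-SY5Y. TUBB was lower in SK-N-BE(2)C and SH-SY5Y (-1.35 ± 0.13, -0.47 ± 0.14 and -1.22 ± 0.25 in the 3 lines, the IMR-32 value under the fold limit), and its highest SH-SY5Y control library held 1.37 CPM. The gamma-tubulin complex, which nucleates microtubules, had 0 higher and 6 lower of 10 tested in SK-N-BE(2)C, 1 and 3 of 10 for IMR-32 and 0 and 5 of 10 for SH-SY5Y. TUBGCP3, a core subunit, fell in each line (-1.23 ± 0.05, -0.87 ± 0.09 and -0.93 ± 0.08), as did MZT1, a small adaptor of the complex (-1.20 ± 0.10, -0.58 ± 0.11 and -1.03 ± 0.08), and gamma-tubulin itself, TUBG1 (-1.44 ± 0.17, -0.50 ± 0.10 and -0.88 ± 0.06). The gamma, delta and epsilon tubulin genes together had 0 higher and 3 lower of 4 tested in SK-N-BE(2)C, 0 and 1 of 4 for IMR-32 and 0 and 1 of 4 for SH-SY5Y. Genes that fold tubulin, the CCT chaperonin, prefoldin and the tubulin cofactors, had 1 higher and 11 lower of 20 tested in SK-N-BE(2)C, 1 and 2 of 20 for IMR-32 and 1 and 6 of 20 for SH-SY5Y, with medians of -0.52, -0.26 and -0.34, the part called lower in IMR-32 being smaller than among all genes. The chaperonin subunit CCT5 fell in all 3 lines (-0.77 ± 0.08, -0.52 ± 0.11 and -0.82 ± 0.08) and TBCEL, a tubulin-destabilising relative of cofactor E, rose in all 3 (0.60 ± 0.07, 0.50 ± 0.13 and 0.81 ± 0.11).

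Beside the 24.5%, 16.6% and 18.6% of all genes called higher at the longer time, genes that edit the tails had 6 higher and 2 lower of 16 tested in SK-N-BE(2)C, 6 and 0 of 17 for IMR-32 and 7 and 2 of 17 for SH-SY5Y, with medians of 0.26, 0.01 and 0.09. The ligases TTLL3, which adds glycine, and TTLL1 and TTLL11, which add glutamate, rose in each line, by 1.18 ± 0.32, 1.27 ± 0.33 and 1.26 ± 0.19 for TTLL3, 1.02 ± 0.12, 0.69 ± 0.14 and 0.56 ± 0.09 for TTLL1 and 0.82 ± 0.08, 0.66 ± 0.14 and 0.64 ± 0.09 for TTLL11 on the log2 scale in the order used above. TTLL3 was scarce, at 0.828 ± 0.279 CPM in control SK-N-BE(2)C. Of the 2 genes listed for the control of tubulin messages, TTC5 rose at 24 h in IMR-32 (0.55 ± 0.08) and in SK-N-BE(2)C (0.54 ± 0.07) and was at 0.29 ± 0.07 in SH-SY5Y, under the fold limit. At the longer time the 2 genes had 1 higher and 0 lower of 2 tested in SK-N-BE(2)C, 1 and 0 of 2 for IMR-32 and 0 and 0 of 2 for SH-SY5Y. TTC5 was called higher in IMR-32 (0.53 ± 0.08) and SCAPER in SK-N-BE(2)C (0.87 ± 0.08). Neither gene listed for lysine acetylation that was found was called at the longer time in any line. The 9 mesenchymal markers found summed to 624 to 851, 654 to 1221 and 1425 to 1904 CPM in the controls of the 3 lines and to 401 to 706, 289 to 476 and 953 to 1118 at the longer time, and the adrenergic sum was higher in every 24 h library than in every control of its line (lowest to highest 2024 to 3076 against 3176 to 3982 in IMR-32). After the longer treatment it was 2571 to 3089 CPM in SK-N-BE(2)C, above the controls (2077 to 2390), and overlapped them in IMR-32 (2891 to 3527) and SH-SY5Y (4075 to 5854 against 3909 to 5163). VIM, an intermediate filament gene, fell at the longer time with log2 fold changes of -0.93 ± 0.20, -1.32 ± 0.33 and -0.53 ± 0.11 and TWIST1 of -0.94 ± 0.09, -0.57 ± 0.11 and -1.13 ± 0.09, FN1 rose in SK-N-BE(2)C and fell in the other lines (1.57 ± 0.31, -1.86 ± 0.39 and -1.26 ± 0.13), and FOSL1 fell in SK-N-BE(2)C (-1.03 ± 0.41) and rose among SH-SY5Y libraries (1.20 ± 0.42). The part of these markers in the members' values was not tested.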

How the data were processed

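PolyA RNA of 45 libraries was sequenced paired-end. The deposited count tables hold whole-number counts per gene, which the authors made by trimming with Trim Galore 0.6.4 and aligning to hg19 with STAR 2.6.1d in its gene counting mode, by the submitters' processing notes. The annotation and the strand setting of the counting are not given in the sources used here. Tables of normalised values and of the authors' own fold changes and p-values were not used.

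Each line was fitted by itself with edgeR 4.0.16 (R 4.3.3) over its 15 libraries, with TMM scaling, filterByExpr (minimum count 10, minimum total 15), the robust quasi-likelihood test and Benjamini-Hochberg adjustment over the 14055, 14293 and 14547 genes tested in SK-N-BE(2)C, followed by IMR-32 and SH-SY5Y. Calls needed an adjusted p under 0.05 and, as in the study's methods, a log2 fold change beyond 0.5. SE was the log2 fold change over the square root of F. Line differences came from 1 fit of all libraries. Intervals called 95% are 1.96 SE to either side, a normal approximation that can be narrower than the test allows. Printed CPM use the library total without TMM. The fitting code was tested on simulated data.

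The members and lists were chosen with earlier results of these data known, so no p is adjusted over a list alone. All members are named. Other list genes are named where called the same way at the longer time in all 3 lines or opposite ways in 2, at most 6 a list. TUBB, TTC5 and SCAPER, and the markers named for low levels, are given outside this rule. Genes most like TUBB3, TUBA1A, TUBB4B and TUBA1B are the 3 with the highest Pearson correlation. TUBA3C, PFDN6, TTLL2, TTLL8, TTLL13, ATAT1 and PRRX1 were not analysed here. Coordinates, exons and coding sequences are those of GENCODE release 44 lifted to GRCh37, promoters those of RefSeq.

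Replicate numbers come from the labels. Deviations of same-numbered libraries from their group means correlated above 0.1 in every pair, except in SK-N-BE(2)C at 7 d against control (lowest 0.0966) and against 24 h (lowest 0.0482). The numbers were taken to pair the samples in the other comparisons. The main fits hold 1 mean per group and no replicate term, so they do not use this pairing. Member calls that changed with the replicate block are given beside the main values. Alternatives were RLE scaling, library size alone, no filter, DESeq2 1.42.0, the replicate block, no fold limit, other gene lengths, and each replicate and library left out. Separate cultures of 1 line are the replicates, and p-values measure the spread between them. Precision is limited by depth for members of few counts. Some details of the lines' genotypes and some sequences are not reported here.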

Additional observations from a re-analysis of the deposited data

Results flagged for a closer look

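Among 90 member-by-group sets of 5 libraries, 10 held a library whose gap to the nearest other exceeded 0.71 of the range (Dixon), where chance flags about 1 in 20. IMR-32 replicate 5 was that library in 7. It was low for TUBB3 in the control at 246 CPM (others 688 to 834), TUBB2A at 24 h at 133 CPM, TUBB2B at 24 h at 438 CPM, TUBA1A in the control at 1157 CPM (others 3126 to 3383) and TUBA4A in the control at 52.6 CPM. It was high for TUBB6, at 95.7 CPM in the control and 32.01 CPM at 24 h. The other 3 were high values: TUBB2A at 103 CPM in SH-SY5Y replicate 1 at 24 h, TUBB2B at 349 CPM in SH-SY5Y control replicate 3, and TUBA1B at 1886 CPM in IMR-32 replicate 2 at 24 h.

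The response to PB differed between lines for 9 results, by the F test of the 45-library fit. At 24 h the log2 fold change of TUBB6 was lower in IMR-32 than in SK-N-BE(2)C (difference -0.97). At the longer time the pair of lines furthest apart was SH-SY5Y minus IMR-32 for TUBB3 (-0.97), TUBB2A (-1.29) and TUBB2B (-1.22). It was IMR-32 minus SK-N-BE(2)C for TUBA1A (1.22), TUBB4B (1.11), TUBB6 (-1.49) and TUBA1B (0.999), and SH-SY5Y minus SK-N-BE(2)C for TUBA1C (-2.16). The longer time was 7 d in SK-N-BE(2)C alone, so line and duration cannot be told apart in its pairs, whereas IMR-32 and SH-SY5Y were both treated for 5 d.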

How the results depend on the processing

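Of 110 member results, 110 kept their direction and side of the threshold with RLE scaling, 109 with library size alone, 104 with no filter and 103 with the replicate block, as did 88 of 90 with DESeq2. The median of all genes moved by under 0.1 with either scaling. With no fold limit the genes called were 6577, 9993 and 8335 in SK-N-BE(2)C (24 h, 7 d, and 7 d against 24 h), 4738, 7296 and 4914 for IMR-32, and 7154, 9516 and 6331 for SH-SY5Y. The share called higher from 24 h to 5 d in SH-SY5Y went from 62.7% to 50.9% of calls.

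TUBA1C from 24 h to 7 d in SK-N-BE(2)C turned from 0.01 to -0.0255 with no filter and -0.0759 with the replicate block. The block raised genes whose 24 h response differed between lines from 1536 to 3126. It changed no member call other than those given in the report. The member calls lost or added with no filter, library size alone or DESeq2 are given beside each call. Whether the numbers pair the samples in SK-N-BE(2)C at 7 d is uncertain, with correlations of 0.0966 to 0.354 against control and 0.0482 to 0.478 against 24 h. With no filter, 1 member was called from 24 h to 5 d in IMR-32. The late gain of the neuron-enriched beta share was 29.4 points for SK-N-BE(2)C cells and 21.0 for SH-SY5Y with no division by length, and 30.2 and 21.7 with canonical transcript lengths, an alternative chosen after seeing the data.

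With a replicate or library left out, members called ranged from 1 to 4 from 24 h to 7 d in SK-N-BE(2)C, 3 to 7 at 24 h in IMR-32 and 1 to 3 from 24 h to 5 d in IMR-32. Genes whose 24 h response differed between lines ranged from 658 to 1633 (members 0 to 1). Uncalled values changed sign from 24 h to 7 d in SK-N-BE(2)C for TUBB2A (-0.18 to 0.0033), TUBB2B (-0.14 to 0.0866), TUBB4A (-0.0294 to 0.28) and TUBA1C (-0.36 to 0.20), and from 24 h to 5 d in IMR-32 for TUBB3 (-0.0758 to 0.22), TUBB4B (-0.0209 to 0.21) and TUBA1B (-0.0261 to 0.19). They also did for TUBA1C at 24 h (-0.23 to 0.18) and TUBB3 at 5 d (-0.20 to 0.0034) in SH-SY5Y. The cause was not tested. Counting error weighs most on the members of few counts, TUBA1C and TUBA4A in SH-SY5Y and TUBA1C in IMR-32.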
